A study of Homo sapiens with 6 samples.

Results

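Lipoprotein receptors and apolipoproteins were followed in M14, an established human melanoma cell line, across 2 ways of growing the cells. The genes were taken from a list of 9 names, OLR1, VLDLR, LRP8, LRP1, SCARB1, APOE, APOC1, APOB and PLTP, and all 9 had a row among the 26748 genes of the deposited table. The list was selected on measured values, the normalised counts of the same 6 libraries, with earlier results of this comparison known, so the differences of these 9 genes between the cultures are given as a description, with no p-value. The tested culture was M14 grown without attachment as melanospheres, floating multicellular spheres used to look for putative cancer stem cells (3D, 3 libraries). Its reference was M14 grown attached in conventional culture (2D, 3 libraries). No drug, transgene or other agent is named in the labels for either culture. Both came from a single cell line, and the labels do not say whether the libraries came from separate cultures, so p-values measure only how these libraries vary, and that variation may be technical.

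Lipoproteins carry cholesterol and triglyceride between cells, wrapped in apolipoproteins that serve as ligands for receptors. Receptors of the lipoprotein receptor family take up whole particles by endocytosis, while SCARB1 transfers cholesterol ester from bound particles without taking in the whole particle, and OLR1 is a scavenger receptor for oxidised LDL. Sterol-regulated genes are raised by SREBP2, a transcription factor that is activated when the membranes of the endoplasmic reticulum are low in cholesterol.

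Libraries are named by culture and replicate, as in 3D_1. They held 16567763 to 19954987 reads assigned to genes. Levels are given as normalised counts, which are reads divided by a size factor of the library. The 2D libraries were less alike than the 3D libraries: across genes, 2D_3 correlated with the other 2D libraries at r = 0.943 and 0.945, while every other pair within a culture reached at least 0.966. Such values over genes, which are no replicates, only describe the libraries. Of 10 markers of the melanocyte lineage and of melanoma, all had a row. MITF, the master transcription factor of pigment cells, had 309, 271 and 285 normalised counts in 3D and 1210, 1295 and 887 in 2D. PMEL, a structural protein of pigment granules, had 620 to 1377 in 3D and 227 to 753 in 2D. CSPG4, a surface proteoglycan of melanoma, had 911 to 1543 in 3D and 782 to 950 in 2D. DCT, a pigment enzyme, had 0 to 1.86 in 3D and 38.4 to 118 in 2D. The other 6 markers averaged under 10: SOX10 reached at most 4.85 in 3D and 37.0 in 2D, MLANA 14.8 in 3D and 17.5 in 2D, and TYR, TYRP1, S100B and MIA at most 5.82 in 3D and 33.9 in 2D. Several defining markers of the lineage were thus low in both cultures. TYRP1 had 0, 5.82 and 0 in 3D and 11.4, 12.8 and 13.4 in 2D, and TYR had 0, 0.969 and 0 in 3D and 2.86, 7.47 and 33.9 in 2D. For TYR and TYRP1 every 3D library was lower than every 2D library. SOX10, TYR and S100B reached 37.0, 33.9 and 13.4 in 2D_3, but at most 6.41, 7.47 and 1.07 in 2D_1 and 2D_2. In bulk RNA, fewer cells with a transcript and less transcript per cell cannot be told apart.

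Of the 9 genes, 8 averaged at least 10 normalised counts and entered a linear model fitted over all 15598 genes that did. In that model 6 of the 8 lay past an adjusted p of 0.05, LRP8, SCARB1, APOE and APOC1 higher and OLR1 and VLDLR lower in 3D, while 24.1% of all genes tested did. The libraries of the cultures did not overlap for 7 of the 8, against 43.1% of all genes tested: every 3D library was higher for 4 (20.5% of all genes) and lower for 3 (22.6%). Nothing is read from either count, because this comparison was used to pick the genes. The number past the threshold was 3 without 2D_2, without 3D_1 or without 3D_3. Only OLR1, VLDLR and APOC1 were past it in all 6 fits that left out a library. The LRP8 and SCARB1 calls held in just 1 of these fits, the fit without 2D_3. The call for APOE was lost without 2D_2, 3D_1 or 3D_3. Whether these calls were lost through fewer libraries or through a particular library was not tested.

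**Figure D1:**
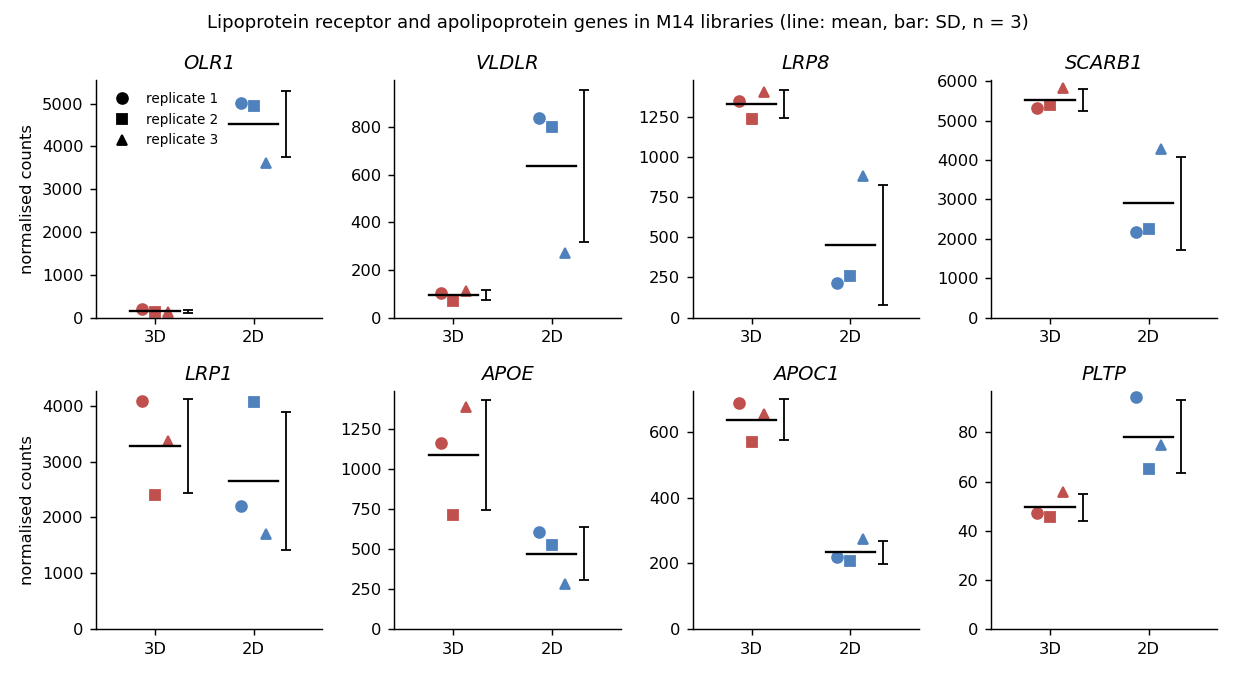
Normalised counts of 8 genes in each library, with 3D in red on the left and 2D in blue on the right of each panel; the vertical axes are linear and start at 0. Symbols give the replicate, horizontal lines the mean and bars the SD (n = 3 per culture). The cultures overlap for LRP1, and 2D_3 (triangle) is the 2D library nearest to 3D for OLR1, VLDLR, LRP8, SCARB1 and APOC1.

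OLR1 (ENSG00000173391, chromosome 12, 10158301 to 10172138, minus strand, GRCh38) encodes LOX-1, a C-type lectin that binds oxidised LDL and is best known from endothelium and macrophages. It had 189, 127 and 136 normalised counts in 3D replicates 1, 2 and 3, and 5008, 4936 and 3625 in 2D replicates 1, 2 and 3. All 3D libraries lay far below all 2D libraries, and 2D_3 was the lowest of the 2D libraries. The means were 151 ± 33.6 in 3D and 4523 ± 779 in 2D (SD, n = 3 each), 30.0-fold lower in 3D. On the log2(value + 1) scale the difference was -4.90 (SE 0.22; 95% interval -5.40 to -4.40), and it ran from -5.08 to -4.79 with a library left out. None of its 75-base sequence windows occurred in transcripts of another gene. Per kilobase of exon, a scale on which genes can be compared, OLR1 ranked 7978th, 8964th and 8845th of 12713 protein-coding genes in the 3D libraries, and 422nd, 344th and 634th in the 2D libraries. In 2D it was the most abundant of the 9 genes, and in 3D it was in the 6th place.

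Markers of macrophages and endothelium, from which LOX-1 is best known, and of hepatocytes were counted in the same libraries. Of 8 macrophage markers 3 had a row, PTPRC, CD14 and CSF1R, with a summed level of 0.928 to 15.5 in 3D and 2.86 to 10.7 in 2D. Of 8 endothelial markers 7 had a row. Their summed level was 149, 191 and 152 in 3D and 63.9, 56.6 and 324 in 2D. Of these, KDR was at 0 in all 3D libraries and at most 2.14 in 2D, and TEK was at most 0.969 in 3D and 1.03 in 2D. PECAM1, an adhesion molecule of endothelium and platelets, had 94.6, 154 and 101 in 3D and 0, 0 and 9.25 in 2D. CDH5 accounted for most of the sum of 2D_3, with 268. VWF had 26.0, 11.6 and 15.5 in 3D and 29.5, 23.5 and 40.1 in 2D. CLDN5 had 1.86, 0 and 3.10 in 3D and 8.58, 12.8 and 2.06 in 2D, and ROBO4 had 6.49, 2.91 and 10.3 in 3D and 0, 4.27 and 3.08 in 2D. Of 8 hepatocyte markers 4 had a row and summed to 64.0 to 85.7 in 3D and 19.2 to 27.8 in 2D, most of it HNF4A. The part of any such cells in the results was not tested.

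Most protein-coding genes within 200 kb of OLR1 were too low to be tested. Of 6 with a row, 2 averaged at least 10, and both fell, beside 11.6% of all genes tested that fell. TMEM52B, a membrane protein gene whose span overlaps that of OLR1 on the other strand without sharing exon bases, had 30.6, 26.2 and 25.8 normalised counts in 3D and 432, 374 and 219 in 2D (log2 difference -3.53, SE 0.32, limma adjusted p = 0.00057). GABARAPL1, a protein of autophagosome membranes, had 632, 826 and 709 in 3D and 2134, 1976 and 1594 in 2D (-1.39, SE 0.19, adjusted p = 0.0024). Neither overlapped between the cultures, and both calls held in all 6 fits with a library left out. The other 4 were too low to be tested and are named after their values were seen. CLEC7A, the beta-glucan receptor dectin-1, which lies 28.0 kb from OLR1, had 22.3, 3.88 and 21.7 in 3D and was listed at 0 in all 2D libraries. CLEC12B, another C-type lectin, had 5.57, 0.969 and 2.06 in 3D and 0 in all 2D libraries. For both of these every 3D library was higher than every 2D library, while CLEC1A and KLRD1 were at most 0.969 in 3D and 3.20 in 2D. The 0.969 of CLEC12B in 3D_2 is the smallest value above 0 in that library. The kit did not mark the strand, so intronic reads of OLR1 and TMEM52B cannot be told apart. Over the neighbourhoods of all 9 genes, 40 protein-coding neighbours were tested, of which 2 rose and 5 fell, while 12.5% of all genes tested rose and 11.6% fell. That total of 7 became 13 in DESeq2, 22 without 2D_3, and 3 without 3D_1 or 3D_3.

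VLDLR (ENSG00000147852, chromosome 9, 2621834 to 2660053, plus strand) and LRP8 (ENSG00000157193, chromosome 1, 53242364 to 53328070, minus strand), which encodes ApoER2, are close relatives in the lipoprotein receptor family. Both bind particles that carry APOE, and in brain both are receptors of the guidance protein reelin. Their levels went in opposite directions between the cultures. For this reason the 250 bases before their RefSeq start are shown (GRCh38.p14, chr9:2621537-2621786, plus strand, for VLDLR; chr1:53328071-53328320, minus strand, for LRP8), with every GC box (GGGCGG on either strand) in capitals.
VLDLR: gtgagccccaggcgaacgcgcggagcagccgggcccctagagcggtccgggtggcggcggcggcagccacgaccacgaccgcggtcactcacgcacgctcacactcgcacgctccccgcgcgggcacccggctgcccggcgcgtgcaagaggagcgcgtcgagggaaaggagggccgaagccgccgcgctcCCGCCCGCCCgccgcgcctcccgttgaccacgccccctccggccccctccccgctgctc
LRP8: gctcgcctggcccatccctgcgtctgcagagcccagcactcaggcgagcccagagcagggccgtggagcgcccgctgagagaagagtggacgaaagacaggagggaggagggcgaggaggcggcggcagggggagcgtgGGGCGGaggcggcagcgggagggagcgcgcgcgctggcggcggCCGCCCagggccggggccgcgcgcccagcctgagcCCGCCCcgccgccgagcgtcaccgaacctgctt
The VLDLR stretch had 78.8% and the LRP8 stretch 77.2% G and C, against a median of 58.0% (quartiles 46.4% and 68.0%) over 35116 promoters of the same length. VLDLR held 2 GC boxes that overlap each other and LRP8 held 3, a motif present in 42.6% of all these promoters. Neither held the sterol regulatory element TCACNCCAC (present in 0.883% of all promoters), the composite site TGATGNAA of C/EBP and ATF factors (3.14%), the AP-1 site TGANTCA (6.57%), the E-box CACGTG (6.34%) or TATAAA (10.7%). All were searched on both strands, and only as these letters within these windows. Promoters were found in the RefSeq table for 6 of the 9 genes, VLDLR, LRP1, LRP8, APOE, APOC1 and PLTP. These 6 genes had 9 promoter windows, and a gene was counted if any of its windows held the motif, while the shares above are per promoter. Counted in this way, each of the 6 had a GC box, and PLTP had TATAAA. Some windows of APOE held no GC box, and not every window of PLTP held TATAAA.

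VLDLR had 103, 69.8 and 110 normalised counts in 3D replicates 1, 2 and 3, and 838, 802 and 270 in 2D replicates 1, 2 and 3. The cultures did not overlap, but 2D_3 lay well below the other 2D libraries. The means were 94.4 ± 21.6 in 3D and 637 ± 318 in 2D (SD, n = 3 each), 6.74-fold lower in 3D, and the log2 difference was -2.60 (SE 0.43; 95% interval -3.59 to -1.61). Without 2D_3 it was -3.13, and the smallest difference with a library left out was -2.32. The 3D values rest on 72 to 111 reads, and the exact 95% Poisson interval of the lowest, 54.6 to 87.9 normalised counts, covers counting error only. VLDLR-AS1, an antisense RNA, covers 7.90% of the exon bases of VLDLR and averaged 3.18 in 3D and 23.5 in 2D. Reads of the pair in that stretch cannot be told apart.

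LRP8 had 1348, 1237 and 1406 normalised counts in 3D replicates 1, 2 and 3, and 213, 259 and 883 in 2D replicates 1, 2 and 3. All 3D libraries were higher than all 2D libraries, with 2D_3 far above the other 2D libraries. The means were 1330.3 ± 85.9 in 3D and 452 ± 374 in 2D (SD, n = 3 each), 2.95-fold higher in 3D. The log2 difference was 1.86 (SE 0.46; 95% interval 0.80 to 2.92), and it was 2.50 without 2D_3. Per kilobase of exon, LRP8 over VLDLR was 11.9, 16.1 and 11.6 in the 3D libraries and 0.231, 0.294 and 2.97 in 2D replicates 1, 2 and 3. LRP8 was thus the more abundant of the pair in all 3D libraries and in 2D_3, and VLDLR in 2D_1 and 2D_2. Antisense RNAs also share exon bases of LRP8: AL355483.4 4.55%, AL606760.1 3.37% and AL355483.2 2.43%. AL606760.1 averaged 6.42 in 3D and 12.2 in 2D, AL355483.2 averaged 0.344 and 0.685, and AL355483.4 had no row. Reads of LRP8 and of these RNAs in the shared stretches cannot be told apart.

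SCARB1 (ENSG00000073060, chromosome 12, 124776856 to 124882668, minus strand) encodes SR-B1, the receptor for high-density lipoprotein. It had 5318, 5396 and 5834 normalised counts in 3D replicates 1, 2 and 3, and 2176, 2245 and 4272 in 2D replicates 1, 2 and 3. The cultures did not overlap, and 2D_3 was again the 2D library nearest to 3D. The means were 5516 ± 278 in 3D and 2897 ± 1191 in 2D (SD, n = 3 each), 1.90-fold higher in 3D, with a log2 difference of 1.00 (SE 0.26; 95% interval 0.40 to 1.60). Per kilobase of exon SCARB1 was the highest of the 9 genes in 3D, with 713 ± 36.0, and followed OLR1 in 2D, with 374 ± 154. SCARB1 over OLR1 on that scale was 11.1, 16.8 and 16.9 in the 3D libraries and 0.172, 0.180 and 0.465 in the 2D libraries.

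LRP1 (ENSG00000123384, chromosome 12, 57128493 to 57213351, plus strand), a large endocytic receptor with many ligands, APOE among them, had 4085, 2406 and 3366 normalised counts in 3D and 2206, 4060 and 1695 in 2D. The libraries overlapped: 2D_2 was close to the highest 3D library. The means were 3286 ± 842 in 3D and 2654 ± 1244 in 2D (SD, n = 3 each). The log2 difference of 0.37 (SE 0.33; 95% interval -0.37 to 1.12) was of the size of its error, and changes within that interval cannot be told from none.

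**Figure D2:**
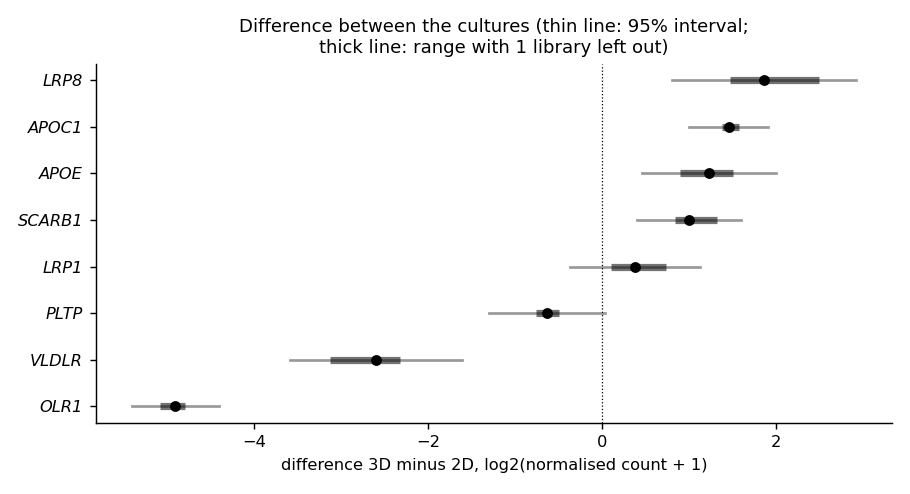
Difference 3D minus 2D on the log2(normalised count + 1) scale for the 8 genes with enough reads; points are the fitted differences, thin lines their 95% intervals and thick lines the range when 1 library is left out. The intervals of LRP1 and PLTP cross 0, and OLR1 is the farthest from it at -4.90.

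APOE and APOC1 lie next to each other on chromosome 19 (APOE, ENSG00000130203, 44905754 to 44909393; APOC1, ENSG00000130208, 44914247 to 44919349; both on the plus strand). APOE is the ligand through which remnant particles bind receptors of the lipoprotein receptor family, and APOC1 is a small apolipoprotein that inhibits the transfer protein CETP. Both were higher in 3D. APOE had 1162, 713 and 1387 normalised counts in 3D replicates 1, 2 and 3, and 603, 527 and 283 in 2D replicates 1, 2 and 3. The cultures did not overlap, and 2D_3 was the library farthest from 3D. The means were 1087 ± 343 in 3D and 471 ± 168 in 2D (SD, n = 3 each), 2.31-fold higher in 3D, with a log2 difference of 1.22 (SE 0.34; 95% interval 0.45 to 1.99) that was 0.89 without 2D_3.

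APOC1 had 688, 568 and 655 normalised counts in 3D and 219, 206 and 273 in 2D. The libraries of each culture lay close together and the cultures did not overlap. The means were 637 ± 62.2 in 3D and 233 ± 35.7 in 2D (SD, n = 3 each), 2.74-fold higher in 3D, with a log2 difference of 1.45 (SE 0.20; 95% interval 1.00 to 1.91). The APOC1 values are uncertain: 20.7% of its windows lie in transcripts of other genes too. The main one is AC011481.3, which covers 43.2% of its exon bases on the same strand and itself averaged 7.04 in 3D and 0.699 in 2D. How reads in that shared stretch were counted is not known here.

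Of 11 protein-coding genes with a row within 200 kb of this pair, 9 were tested, 1 rose and 0 fell (limma, adjusted p under 0.05), beside 24.1% of all genes tested that passed, with a median log2 difference of -0.30. TOMM40, a pore protein of the mitochondrial outer membrane that lies 2.07 kb from APOE, had 3293, 4014 and 3902 in 3D and 4839, 3938 and 5058 in 2D (-0.30, SE 0.18, adjusted p = 0.23). BCAM, an adhesion molecule, had 3537, 2014 and 4477 in 3D and 5146, 4747 and 6503 in 2D (-0.77, SE 0.29, adjusted p = 0.083; past the threshold with the replicate number as a block). CLASRP, a splicing factor, rose, with 1420, 1278 and 1736 in 3D and 816, 813 and 1139 in 2D (0.69, SE 0.20, adjusted p = 0.041). That call was lost without 2D_1, 2D_2, 3D_1 or 3D_3, with an adjusted p of up to 0.16.

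APOB (ENSG00000084674, chromosome 2, 21001429 to 21044073, minus strand), the structural protein of LDL and of very low-density lipoprotein made in liver and intestine, was listed at 0 in all 3D libraries and in 2D_1 and 2D_3. It had 2 reads in 2D_2, or 2.14 normalised counts. A count of 0 allows up to 3 reads, which is 2.78 to 3.10 normalised counts in the libraries listed at 0, so no difference was detectable. MTTP, which loads lipid onto APOB, was also near 0, at 0 to 2.91 in 3D and 0 to 4.11 in 2D.

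PLTP (ENSG00000100979, chromosome 20, 45898621 to 45912155, minus strand), the phospholipid transfer protein of plasma, had 47.3, 45.6 and 55.7 normalised counts in 3D and 94.4, 65.1 and 75.05 in 2D. Every 3D library was lower than every 2D library, though the gap was small. The means were 49.5 ± 5.44 in 3D and 78.2 ± 14.9 in 2D (SD, n = 3 each), and the log2 difference was -0.64 (SE 0.29; 95% interval -1.31 to 0.03). These values rest on 47 to 54 reads in 3D and 61 to 99 in 2D. CTSA, a lysosomal protease gene on the other strand, shares 7.87% of the exon bases of PLTP and was far more abundant, at 1904 in 3D and 1530 in 2D. Reads of the pair in that stretch cannot be told apart.

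**Figure D3:**
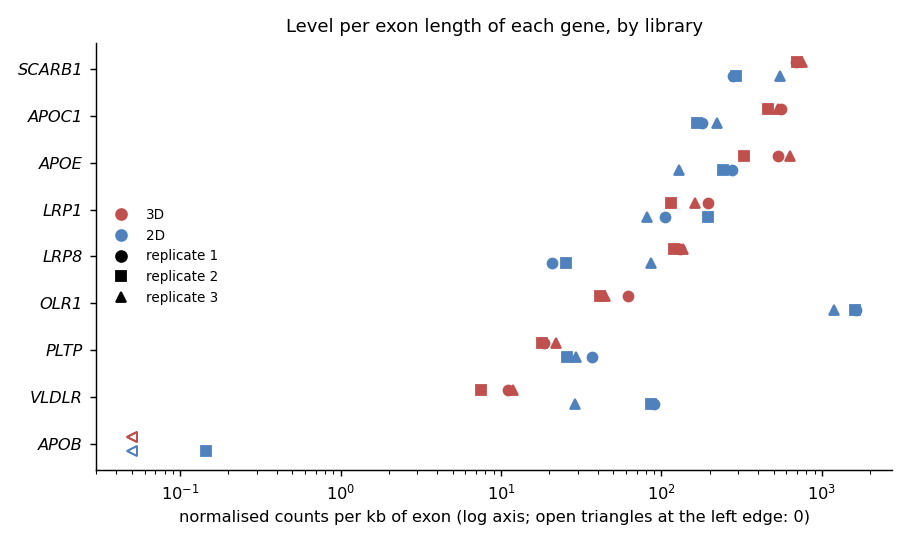
Normalised counts per kilobase of exon of the 9 genes in each library, on a log axis, with 3D (red) above 2D (blue) for each gene and genes ordered by their 3D mean; open triangles mark libraries listed at 0. OLR1 is the highest gene in 2D and 6th in 3D, while SCARB1 is the highest in 3D.

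Per kilobase of exon, the order of levels in 3D was SCARB1, APOC1, APOE, LRP1, LRP8, OLR1, PLTP, VLDLR and APOB, with means of 713, 518, 496, 158, 130, 49.3, 19.5, 10.1 and 0. Libraries of neighbours in this order overlapped for APOC1 and APOE and for LRP1 and LRP8, and for no other neighbours. In 2D the order was OLR1, SCARB1, APOE, APOC1, LRP1, VLDLR, LRP8, PLTP and APOB, with means of 1480, 374, 215, 189, 127, 68.2, 44.0, 30.8 and 0.0480. There, all neighbours from APOE down to PLTP overlapped, so only the places of OLR1, SCARB1 and APOB were set apart by more than the spread of the libraries. Exon length was that of the union of all exons of a gene in GENCODE 29, and a gene that uses short transcripts is placed too low by it.

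The genes differed in where 2D_3 lay between the other 2D libraries and 3D. On the log2 scale, with 0% at the mean of 2D_1 and 2D_2 and 100% at the mean of 3D, 2D_3 lay at 76.4% for LRP8, 72.1% for SCARB1, 51.0% for VLDLR, 23.0% for APOC1 and 9.02% for OLR1. For APOE it lay at -111%, on the far side of the other 2D libraries from 3D. The median over the 3766 genes past the threshold was 27.9% (quartiles 1.79% and 51.6%). LRP8 and SCARB1 were thus beyond the upper quartile of these genes, OLR1, APOC1 and VLDLR within the quartiles, and APOE below the lower one. The fit behind that threshold included 2D_3, so genes whose 2D_3 lies near 3D pass it less readily. The quartiles therefore do not describe all genes tested, and no gene is called unusual from them. Alongside, 12 sterol-regulated genes averaged 0.89, 0.92 and 0.82 in 3D and -1.25, -1.34 and -0.03 in 2D replicates 1, 2 and 3, on a log2 scale centred per gene over the 6 libraries. For 9 genes of the ATF4 response, a stress programme for amino acid shortage, the averages were -1.14, -0.75 and -0.98 in 3D and 1.97, 1.83 and -0.91 in 2D. The part of these programmes in the differences of LRP8, SCARB1 and VLDLR was not tested.

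**Figure D4:**
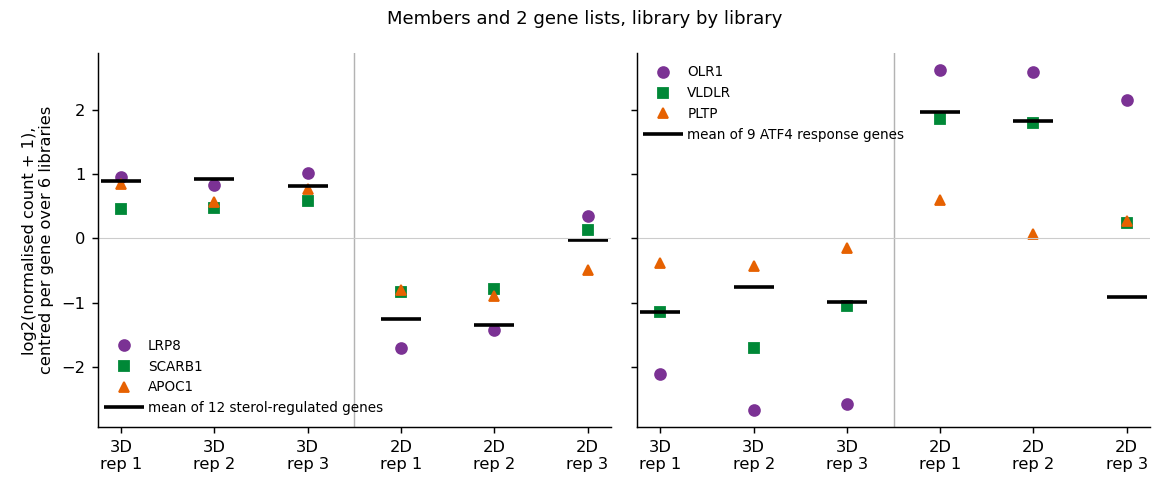
Log2(normalised count + 1), centred per gene over the 6 libraries, for LRP8, SCARB1 and APOC1 beside the mean of 12 sterol-regulated genes (left) and for OLR1, VLDLR and PLTP beside the mean of 9 ATF4 response genes (right); libraries run along the horizontal axis, 3D before 2D. In 2D_3 the sterol-regulated mean is -0.03 and the ATF4 mean -0.91, while OLR1 stays close to the other 2D libraries.

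As lists, 10 of the 12 sterol-regulated genes rose and 0 fell, beside 12.5% and 11.6% of all genes tested, with a median log2 difference of 1.79 beside -0.02 over all genes tested, and 8 to 10 rose with a library left out. INSIG1, which holds the SREBP complex in the endoplasmic reticulum, had 6969, 4899 and 5885 in 3D and 454, 401 and 1347 in 2D (3.22, SE 0.42, limma adjusted p = 0.0020). SREBF2 itself, the gene of SREBP2, had 6296, 5647 and 7222 in 3D and 6263, 6693 and 7746 in 2D (-0.11, SE 0.18, adjusted p = 0.67; 0.02 with equal library totals). Of the 9 ATF4 response genes 3 fell and 0 rose, beside 24.1% of all genes tested that passed in either direction. The count was 1 without 2D_2, 3D_1 or 3D_3, 8 without 2D_3, 6 in edgeR or DESeq2 and 5 with the replicate block. Of all genes tested, too, fewer passed without 2D_2, 3D_1 or 3D_3, and more passed without 2D_3 or in DESeq2. Fewer of them passed in edgeR or with the replicate block. ATF3, a stress-induced transcription factor, had 279, 332 and 265 in 3D and 2636, 2167 and 2538 in 2D (-3.06, SE 0.18, adjusted p = 0.00011), a difference present in 2D_3 as well. These lists were chosen with earlier results of the same libraries known and are no independent evidence of their direction.

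Among 8 other tested receptors of the family and its sorting relatives, 1 rose and 1 fell, with a median log2 difference of -0.14; this is close to the 24.1% of all genes tested that passed. LRP4, the agrin receptor of the neuromuscular junction, rose, with 1263, 980.0 and 1347 in 3D and 435, 516 and 983 in 2D (0.97, SE 0.30, limma adjusted p = 0.047). SORL1, a sorting receptor of the Golgi and endosomes, fell, with 363, 271 and 330 in 3D and 858, 1170 and 1321 in 2D (-1.78, SE 0.22, adjusted p = 0.0016). The WNT co-receptor LRP5 was at 2834 to 3928 in 3D and 2544 to 3689 in 2D (adjusted p = 0.46). LRP11 is uncertain, as 46.1% of its windows are shared with other genes. Only SORL1 was past the threshold in all 6 fits with a library left out. LRP4 was past it only in the fit without 2D_3 among these (up to 0.16), and not with a pseudocount of 0.1 or in edgeR.

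Of 9 tested genes that control or serve these receptors, 0 rose and 2 fell, with a median of -0.34, and this share too is close to 24.1%. DAB2, an endocytic adaptor that binds the tails of such receptors, fell, with 1124, 674 and 1181 in 3D and 5796, 6312 and 3446 in 2D (-2.38, SE 0.29, limma adjusted p = 0.0016). PICALM, a clathrin assembly protein, fell by 0.54 on the log2 scale (adjusted p = 0.045). LRPAP1, the chaperone of the family in the endoplasmic reticulum, had 2289, 1721 and 2366 in 3D and 2075, 1660 and 2191 in 2D (adjusted p = 0.72). DAB2 kept its call in all 6 fits with a library left out. PICALM lost it without 2D_1, 2D_2, 3D_1 or 3D_3 (up to 0.18) and also with no filter, equal library totals, the replicate block or edgeR. Genes of this list past the threshold numbered 4 without 2D_3, a fit in which more of all genes tested passed too.

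Of 6 other scavenger receptors tested, 2 rose and 3 fell, beside 12.5% and 11.6% of all genes tested, and 4 to 6 passed with a library left out. SCARA3, a scavenger receptor of class A, fell, with 975, 1132 and 1194 in 3D and 3588, 3851 and 5322 in 2D (-1.93, SE 0.20, limma adjusted p = 0.00076). SCARA5, a ferritin receptor, rose, with 3485, 2710 and 3362 in 3D and 1630, 1418 and 1546 in 2D (1.05, SE 0.17, adjusted p = 0.0048). STAB1, a clearance receptor of sinusoidal endothelium and macrophages, rose, with 209, 92.1 and 245 in 3D and 6.67, 6.41 and 37.0 in 2D (3.71, SE 0.67, adjusted p = 0.0076). CXCL16, a chemokine that in its membrane form binds oxidised LDL as OLR1 does, fell, with 514, 306 and 486 in 3D and 1381, 1265 and 831 in 2D (-1.41, SE 0.27, adjusted p = 0.0093). The list's other call was SCARF2, which fell and is named after its values were seen (-1.12, adjusted p = 0.016). CD36, another receptor for oxidised LDL, was at most 4.85 in 3D and 0.953 in 2D.

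Both lipoprotein lipases tested and an inhibitor of theirs differed between the cultures. Of 8 tested genes of particle assembly, lipolysis and remodelling, 2 rose and 2 fell, beside 12.5% and 11.6% of all genes tested, and all 4 were past the threshold in every fit with a library left out. LPL, which hydrolyses the triglyceride of circulating particles, fell, with 3561, 4217 and 3587 in 3D and 38746, 36767 and 19746 in 2D (-3.01, SE 0.27, limma adjusted p = 0.00057). ANGPTL4, a secreted inhibitor of LPL, rose, with 461, 449.8 and 438 in 3D and 54.3, 31.0 and 66.8 in 2D (3.19, SE 0.31, adjusted p = 0.00063). LIPG, endothelial lipase, which acts mainly on phospholipid of high-density lipoprotein, rose, with 205, 342 and 198 in 3D and 4.77, 9.61 and 23.6 in 2D (4.40, SE 0.53, adjusted p = 0.0015). SORT1, a sorting receptor that binds LPL and APOB, fell, with 884, 1027 and 855 in 3D and 1992, 2069 and 1800.1 in 2D (-1.08, SE 0.16, adjusted p = 0.0036). For none of the 4 did the cultures overlap.

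Of 12 tested genes that release, store or export lipoprotein cholesterol, 1 rose and 3 fell, with a median of -0.01, beside 24.1% of all genes tested that passed. NR1H3, the sterol receptor LXR-alpha, rose, with 1879.8, 1704 and 2111 in 3D and 1310.4, 1011 and 1012 in 2D (0.78, SE 0.18, limma adjusted p = 0.018). SOAT1, which esterifies cholesterol for storage, fell, with 1579, 1383 and 1447 in 3D and 2388, 2447 and 3824 in 2D (-0.94, SE 0.21, adjusted p = 0.016). NPC1, which moves cholesterol out of lysosomes, fell (-1.24, adjusted p = 0.029), and so did NCEH1, a cholesterol ester hydrolase (-0.86, adjusted p = 0.020). These calls were not kept in every fit with a library left out. Of the 12, 0 were past the threshold without 3D_1 or without 3D_3, 2 without 2D_1, 1 without 2D_2, and 8 without 2D_3. Such fits have fewer libraries, and fewer of all genes tested passed in each of them except the fit without 2D_3. Over these fits the log2 difference ran from 0.70 to 0.90 for NR1H3 and from -1.06 to -0.72 for SOAT1. It ran from -1.04 to -0.75 for NCEH1 and from -1.68 to -1.02 for NPC1. Whether the calls were lost through fewer libraries or through a particular library was not tested. With single libraries left out, the adjusted p of these 4 genes reached 0.11 at most.

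Apolipoproteins other than those above were mostly low. Of 19 listed, 9 had a row, 6 were tested, 1 fell and 0 rose, beside 24.1% of all genes tested that passed. APOL6, of a family of intracellular apolipoproteins, fell, with 319, 267 and 261 in 3D and 710.0, 798 and 334 in 2D (-1.03, SE 0.32, limma adjusted p = 0.049), a call lost without any library other than 2D_3 (adjusted p of up to 0.17) and with a pseudocount of 0.1, a mean of at least 50 or equal library totals. CLU, which encodes the secreted chaperone clusterin, or apolipoprotein J, was the most abundant, with 8237, 8508 and 8789 in 3D and 4007, 3225 and 9644 in 2D. It did not pass (0.77, SE 0.36, adjusted p = 0.15), since 2D_3 was higher than every 3D library. Without that library 3 of the list were past the threshold, CLU among them (adjusted p = 0.00038). More of all genes tested passed in that fit too. APOA1, the main protein of high-density lipoprotein, was at 0.928 to 6.19 in 3D and 3.08 to 8.58 in 2D.

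**Figure D5:**
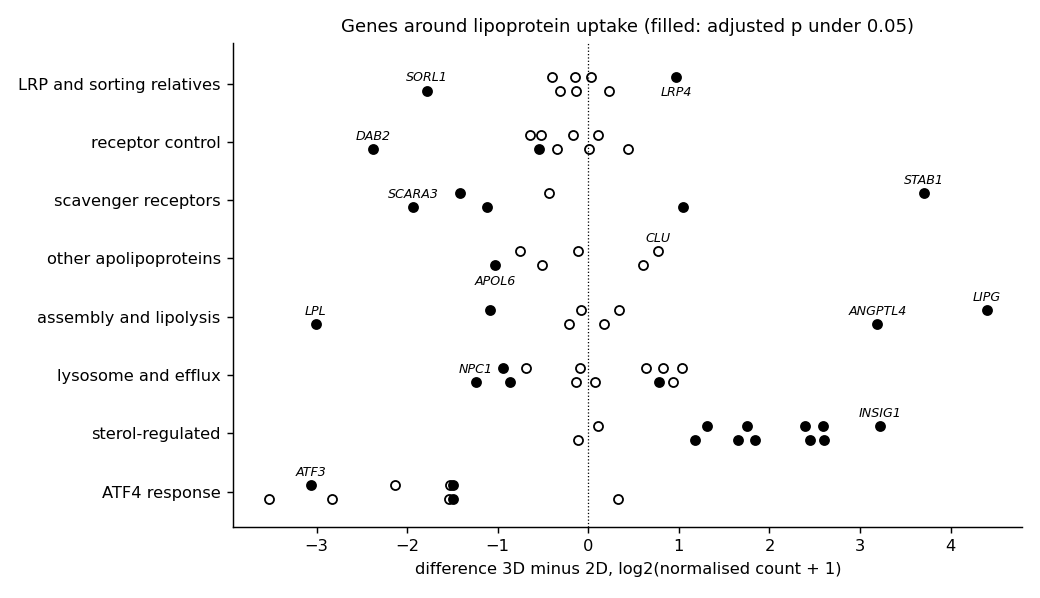
Difference 3D minus 2D on the log2(normalised count + 1) scale for each tested gene of 8 lists around lipoprotein uptake; filled circles are past an adjusted p of 0.05 and open circles are not, and points are offset vertically for legibility. Filled circles lie on both sides of 0 in 4 of the lists, all filled circles of the sterol-regulated list lie above 0, and LPL and LIPG lie at -3.01 and 4.40.

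For 6 of the genes (OLR1, VLDLR, LRP8, SCARB1, APOC1 and PLTP), those with the most similar profile were taken from 10457 protein-coding genes with a mean of at least 100, by the distance between centred log2 profiles over the 6 libraries. Nearest to OLR1 were NPR3 (distance 0.82), XAGE2 (0.96) and RASGRP4 (1.01). NPR3, the natriuretic peptide clearance receptor, had 33.4, 15.5 and 22.7 in 3D and 585, 580 and 337 in 2D. Nearest to VLDLR were SARM1 (0.36), CSF2RA (0.37) and C6orf132 (0.48), each with 2D_3 between the other 2D libraries and 3D. Nearest to LRP8 were CTSV (0.27), LYNX1 (0.28) and TTYH3 (0.31), and to SCARB1 PTOV1 (0.17), OSBPL5 (0.17) and TRIM3 (0.20). OSBPL5, an oxysterol-binding protein relative, had 2347, 2398 and 2737 in 3D and 992, 966 and 1720.0 in 2D. Nearest to APOC1 were PIK3AP1 (0.14), CREB3L1 (0.16) and POLM (0.21), and to PLTP SIGIRR (0.16), TSPAN4 (0.22) and VPS72 (0.23; 34.8% of its windows also occur in other genes). The profiles share 6 libraries and a single contrast, so this likeness is a description only.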

How the data were processed

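The labels' protocols state a column extraction of total RNA from M14 cells and TruSeq RNA libraries (a kit that does not mark the strand) read on an Illumina NovaSeq. The tools and build named are DESeq2, HISAT2 and featureCounts 1.5.0 with GRCh38 (hg38), per the submitters' processing notes, while annotation release and further versions are not given there. The authors deposited a signal for each gene, normalised with a size factor for each library: 100% of values were whole multiples of a step per library within 0.01 of a read, so whole reads were recovered. The table's 6 empty columns were not used. Of 26748 genes, 26506 matched the name table and 26702 GENCODE 29, from which coordinates and exon lengths come. Promoters are from RefSeq (GRCh38.p14).

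Genes averaging at least 10 were tested with limma 3.58.1 (R 4.3.3; empirical Bayes with a mean trend, no covariates) on log2(value + 1), with Benjamini-Hochberg adjustment over all 15598 genes at 0.05. Differences are on this scale, which understates those of low genes. Members, lists and tests were chosen with earlier results of these data known. Genes named are the members, up to 4 genes past the threshold with the smallest adjusted p and up to 2 of the highest mean that were not, per list and per neighbourhood of OLR1 and of APOE and APOC1, melanoma markers, and the 3 nearest profiles. Other genes named (the untested or weaker ones given as levels, SCARF2, and markers of other cell types) were chosen after their values were seen. Tried instead were a pseudocount of 0.1 or 10, a minimum mean of 50 or none, scaling by TMM or to equal library totals, a replicate block, the recovered reads in edgeR 4.0.16 and in DESeq2 1.42.0, and leaving out each library. Sequence windows of 75 bases were compared over GENCODE 29 transcripts with Python 3.11.15. The fit was tested on simulated data. Listed genes with no row were not analysed here, and some results are not reported here.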

Additional observations from a re-analysis of the deposited data

How the results depend on the processing

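On the recovered reads, all genes past the threshold numbered 3657 in edgeR and 4724 in DESeq2. The 8 tested members kept their direction under the 15 alternatives, and 6 of them were past the threshold under each of the 9 that used all libraries. With a library left out that count was 3 to 6, and the count of all genes past the threshold, 3766 (1950 higher, 1816 lower), was 1190 (without 3D replicate 3) to 7111 (without 2D replicate 3). With equal library totals, which raised the median log2 difference of all genes by 0.13, the split was 2392 higher and 1253 lower. With single libraries left out, genes past the threshold numbered 1 to 3 for other receptors of the family, 1 to 4 for receptor control, 4 to 6 for scavenger receptors, 0 to 3 for other apolipoproteins, 4 in every fit for assembly and lipolysis, 0 to 8 for lysosome and efflux, 8 to 10 for sterol-regulated genes, 1 to 8 for the ATF4 response and 3 to 22 for neighbours. The count for other receptors of the family was 1 with a pseudocount of 0.1 or in edgeR, and that for receptor control was 1 with no filter, equal totals, the replicate block or edgeR. For other apolipoproteins the count was 0 with a pseudocount of 0.1, a mean of at least 50 or equal totals. For the ATF4 response it was 5 with the replicate block, 6 in edgeR and 6 in DESeq2, and for neighbours 13 in DESeq2. Genes that were not called changed sign near 0. The LRPAP1 log2 change was -0.0189 without 2D replicate 2 and 0.247 without 3D replicate 2, the range with a library left out. The SC5D log2 change was -0.0638, -0.100 and -0.216 without 2D replicate 1, 2D replicate 2 and 3D replicate 2, and at most 0.468. The DDIT4 log2 change was -0.370 without 2D replicate 3 and at most 0.738. With equal totals the NR1H2 log2 change was 0.0373 and the SREBF2 log2 change 0.0195. The cause was not tested. Whether the labels' replicate numbers pair the cultures is not known here. Same-numbered libraries' deviations from their culture means correlated at -0.08, -0.14 and 0.04 across genes, and not every library correlated best with its own number. With so few libraries per culture the deviations depend on each other, so these values cannot settle it. The fit with the replicate block called 3222 genes. Depth limits APOB, and exact intervals cover counting error only.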

Other observations

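Some genes of lipoprotein handling, and the endothelial marker CDH5, set 2D replicate 3 apart from all the other libraries rather than between the cultures. They are given as values, and were chosen after the values were seen. NPC2, a lysosomal protein that binds cholesterol, had 3411, 3539 and 3495 normalised counts in 3D and 1522, 1259.7 and 5821 in 2D replicates 1, 2 and 3. APOL1, an apolipoprotein with a role against trypanosomes, had 577, 519 and 659 in 3D and 487, 486 and 1067 in 2D. APOL3, of the same family, had 17.6, 9.69 and 21.7 in 3D and 15.2, 9.61 and 75.05 in 2D. CDH5, the cadherin of endothelium, had 19.5, 21.3 and 21.7 in 3D and 25.7, 13.9 and 268 in 2D. For each of these 4 genes 2D replicate 3 was the highest of the 6 libraries.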
